A study of Mus musculus with 7 samples.

Results

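Bone morphogenetic proteins (BMPs) and activins are secreted ligands of the TGF-β superfamily, and this report follows the transcripts of 10 genes of their signalling axis in stressed mouse embryonic fibroblasts (MEFs). The genes were looked up by symbol, and all 10 were found among the 49382 gene rows of the deposited expression table. They comprise the ligand genes Bmp4, Bmp2, Inhba and Inhbb, the genes of the secreted antagonists Grem1, Fst and Fstl3, and the target genes Id1, Id2 and Id3. The MEFs were wild-type primary fibroblasts from the bodies of midgestation embryos of both sexes, without the head and the blood-forming tissue, were sorted for purity per the methods, and were grown in DMEM with serum. The sources do not say how many embryos were pooled. RNA-seq was done on 7 libraries. The control library came from unstressed cells, at a time the labels do not give. Oxidative stress was 10 μM sodium arsenite, a reagent that attacks thiols, and osmotic stress was 100 mM of extra NaCl, each for 3 hours. The other 4 conditions lasted 10 hours: ER stress from 1 μM thapsigargin, which blocks the calcium pump of the endoplasmic reticulum, medium free of glucose, medium free of glutamine, and hypoxia at 0.1% oxygen.

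BMP ligands bind receptor pairs that phosphorylate SMAD1, SMAD5 and SMAD9, and activins bind receptor pairs that phosphorylate SMAD2 and SMAD3. Either set of SMADs enters the nucleus with SMAD4. The Id genes are textbook direct targets of the BMP branch, and encode helix-loop-helix proteins that lack a DNA-binding region and hold back transcription factors such as the E proteins. Gremlin 1 traps BMP2 and BMP4 outside the cell, whereas follistatin and the follistatin-like protein FSTL3 trap activins. In fibroblasts these pathways are known for their parts in matrix production, wound repair and differentiation.

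Every condition was a single library, so there is no replicate spread to set a difference against, and neither a p-value nor an SD or standard error is given. The unit is TPM, the share of a library taken by a gene per transcript length, scaled to a total of 1000000, so levels of different genes can be compared within a library. TPM holds no read counts, so sequencing depth and counting error are unknown. A log2 change is the condition minus the control on the log2(TPM + 1) scale, which understates the change of genes with low levels. "Rose" and "fell" are used only where such a change exceeded 2-fold, the rule of the study, which is a rule of size and no test. Genes that averaged under 2 TPM were set aside, which left 12909, among them 9 of the 10 members. Bmp2 was the one set aside. The 8 fibroblast markers checked, including Col1a1, Col3a1, Vim and Thy1, were present in every library, with a summed level between 6160 and 12781 TPM. Epithelial and erythroid markers summed to at most 1.36 and 0.944 TPM. The endothelial markers summed to between 4.09 and 9.07 TPM, and the 6 macrophage markers to between 6.76 and 13.7 TPM. Of the latter, Cd68 made up 5.26 to 9.77 TPM, Csf1r and Lyz2 reached 2.25 and 2.23 TPM, and the defining markers Ptprc and Adgre1 reached at most 0.280 and 0.110 TPM. In bulk RNA, fewer cells of a type and less RNA per cell cannot be told apart.

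The RefSeq promoter windows of 5 of the genes are shown first, for reference beside their levels. A window runs from 250 bases before to 50 bases after the transcription start site on GRCm38.p6, and 7 of the 10 members had one in the table used. The start site is that of RefSeq. The Id2 and Id3 windows lie inside the gene spans given below, which come from another annotation. Bmp4 and Inhba are shown because their levels parted in oxidative stress and glutamine depletion, Fstl3 because it rose in hypoxia, and Id2 and Id3 as target genes of the pathway. Capitals mark matches on either strand to the SMAD box CAGAC, to the GC-rich SMAD site GGCGCC and to the hypoxia response core ACGTG. Sequences are written 5′ to 3′ on the strand of the gene.
Bmp4, chr14:46390620-46390919, minus strand: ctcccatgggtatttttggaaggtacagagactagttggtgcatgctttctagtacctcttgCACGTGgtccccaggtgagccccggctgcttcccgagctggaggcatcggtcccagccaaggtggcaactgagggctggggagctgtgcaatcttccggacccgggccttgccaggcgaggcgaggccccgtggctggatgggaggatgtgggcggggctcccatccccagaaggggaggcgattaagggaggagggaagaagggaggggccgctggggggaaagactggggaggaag
Inhba, chr13:16011601-16011900, plus strand: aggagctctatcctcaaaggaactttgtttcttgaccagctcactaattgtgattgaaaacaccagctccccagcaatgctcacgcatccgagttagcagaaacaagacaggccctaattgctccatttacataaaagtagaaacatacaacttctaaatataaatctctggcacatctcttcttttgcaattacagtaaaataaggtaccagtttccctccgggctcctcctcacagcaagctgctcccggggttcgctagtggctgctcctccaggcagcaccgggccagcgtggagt
Fstl3, chr10:79777024-79777323, plus strand: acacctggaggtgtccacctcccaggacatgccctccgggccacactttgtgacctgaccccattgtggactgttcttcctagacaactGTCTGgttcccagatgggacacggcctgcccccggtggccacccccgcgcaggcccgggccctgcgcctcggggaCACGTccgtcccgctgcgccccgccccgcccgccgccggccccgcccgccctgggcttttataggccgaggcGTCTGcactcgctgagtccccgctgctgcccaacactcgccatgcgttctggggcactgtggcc
Id2, chr12:25096043-25096342, minus strand: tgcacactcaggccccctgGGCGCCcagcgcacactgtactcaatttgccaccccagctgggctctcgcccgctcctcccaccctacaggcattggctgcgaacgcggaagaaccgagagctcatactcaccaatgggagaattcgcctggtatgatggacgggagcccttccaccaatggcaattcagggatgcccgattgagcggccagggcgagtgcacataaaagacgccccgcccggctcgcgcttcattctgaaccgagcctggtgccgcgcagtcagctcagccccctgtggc
Id3, chr4:136143572-136143871, plus strand: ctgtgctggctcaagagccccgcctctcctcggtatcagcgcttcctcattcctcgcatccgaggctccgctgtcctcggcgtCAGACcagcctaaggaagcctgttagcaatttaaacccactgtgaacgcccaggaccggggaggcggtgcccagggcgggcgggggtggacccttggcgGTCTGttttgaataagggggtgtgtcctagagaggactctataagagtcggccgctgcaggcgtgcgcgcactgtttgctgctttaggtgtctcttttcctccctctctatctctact

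The Id3 window held 2 SMAD boxes, at positions -167 and -68 from the start site, whose first transcribed base is +1, and the Id2 window held 1 GC-rich SMAD site at -231. In the Fstl3 window 2 SMAD boxes began at -161 and -14 and 1 hypoxia response core at -86. The Bmp4 window held the letters CACGTG from -188, which match the hypoxia response core on both strands and the E-box CANNTG at once. No match to these 3 motifs was found in the Inhba window, whose GC content was 47.7%, against between 60.0% and 70.7% in the other 4 windows shown. Among all 32851 windows of the table, 49.6% held a SMAD box, 11.9% a GC-rich SMAD site and 19.6% a hypoxia response core. A match describes the letters and says nothing about binding in these cells.

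ER stress moved more of the 9 members than any other condition. Bmp4, Inhbb, Fst, Id1 and Id2 fell by more than 2-fold and none rose, while 11.0% of all 12909 genes fell and 8.60% rose. The median log2 change of the 9 members was -1.36, beside 0.00 over all genes. The fibroblast markers also had their lowest summed level in this library, 6160 TPM against 11389 TPM in the control, and the part of that shift in these changes was not tested. Oxidative stress raised Inhba and lowered Bmp4, where 3.94% of all genes rose and 4.85% fell. Glutamine depletion raised Inhba alone and lowered no member, against 3.21% of genes up and 3.21% down. Osmotic stress lowered Id1 alone, with 3.08% of genes up and 8.76% down. Hypoxia raised Fstl3 alone, with 3.57% of genes up and 2.64% down. In glucose depletion no member passed 2-fold, where 1.83% of genes rose and 2.41% fell. Outside ER stress the medians of the members lay between -0.49 and 0.04, and those of all genes between -0.16 and -0.02. The 6 comparisons share the control library, so any error in its values enters each of them.

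**Figure D1:**
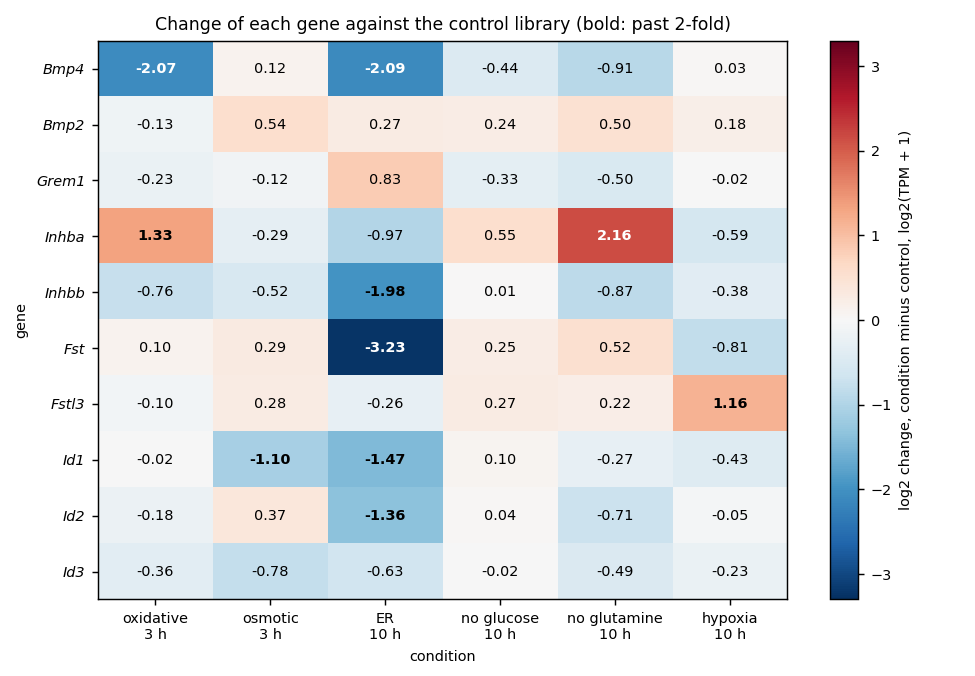
Heat map of the log2 change of each of the 10 genes (rows) in each condition (columns) against the single control library, on the log2(TPM + 1) scale, with changes past 2-fold in bold. The ER stress column holds 5 of the 10 bold values, from -1.36 for Id2 to -3.23 for Fst, and Inhba holds the 2 largest rises, 2.16 in glutamine depletion and 1.33 in oxidative stress.

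Bmp4 was the main BMP ligand transcript. The gene lies on chromosome 14 from 46383520 to 46390669, and its protein patterns the embryo and is made by many mesenchymal cells. Its level was highest at 75.3 TPM in osmotic stress, followed by 70.6 in hypoxia, 69.2 in the control, 50.8 in glucose depletion, 36.4 in glutamine depletion, 15.7 in oxidative stress and 15.5 in ER stress. Osmotic stress, hypoxia and the control were close together, the nutrient-depleted cells stood between, and oxidative and ER stress were at the bottom. Bmp4 fell to 22.7% of the control level after 3 hours of arsenite and to 22.4% after 10 hours of thapsigargin. These changes ranked 161 and 305 from the lowest among the 12909 genes. The log2 changes of -0.91 in glutamine depletion and -0.44 in glucose depletion were within 2-fold. Without replicates it cannot be said whether the level in oxidative stress differed from that in ER stress.

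Bmp2, the closest relative of Bmp4, was close to the limit of measurement. Its highest level was 1.25 TPM, in osmotic stress, and its lowest 0.412 TPM, in oxidative stress. The control stood at 0.545 TPM, glutamine depletion at 1.19, ER stress at 0.867, glucose depletion at 0.819 and hypoxia at 0.753 TPM. At such levels a log2 change on this scale is small by construction, with 0.54 as its highest value, and no direction is read from it. Other ligands of the family were also scarce: of 23 further ligand genes, 4 had a mean of at least 2 TPM. Gdf10 went from 3.87 TPM in the control to 0.0782 TPM in ER stress (log2 change -2.17) and Gdf11, a relative of myostatin, from 9.16 to 2.27 TPM (-1.64). Bmp6 had 1.45 TPM without stress and 3.51 TPM in ER stress, a log2 change of 0.88. Inha, the inhibin alpha subunit gene, stayed between 0.739 and 3.25 TPM in all 7 libraries.

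Grem1, on chromosome 2 from 113746164 to 113758646, was much more abundant than the ligand that its product binds. ER stress held 567 TPM of Grem1, the control 319, hypoxia 314, osmotic stress 293, oxidative stress 273, glucose depletion 253 and glutamine depletion 225 TPM. ER stress stood above the other 6 libraries, and its log2 change of 0.83, or 178% of the control level, did not reach 2-fold. No condition took Grem1 past 2-fold. The ratio of Grem1 to Bmp4 transcripts, chosen after the levels of both were seen, was 4.61 in the control and between 3.90 and 6.18 in osmotic stress, hypoxia and both nutrient depletions. It was 17.3 in oxidative stress, where the level of Bmp4 was low, and 36.6 in ER stress, where Bmp4 was low and Grem1 was at its highest.

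**Figure D2:**
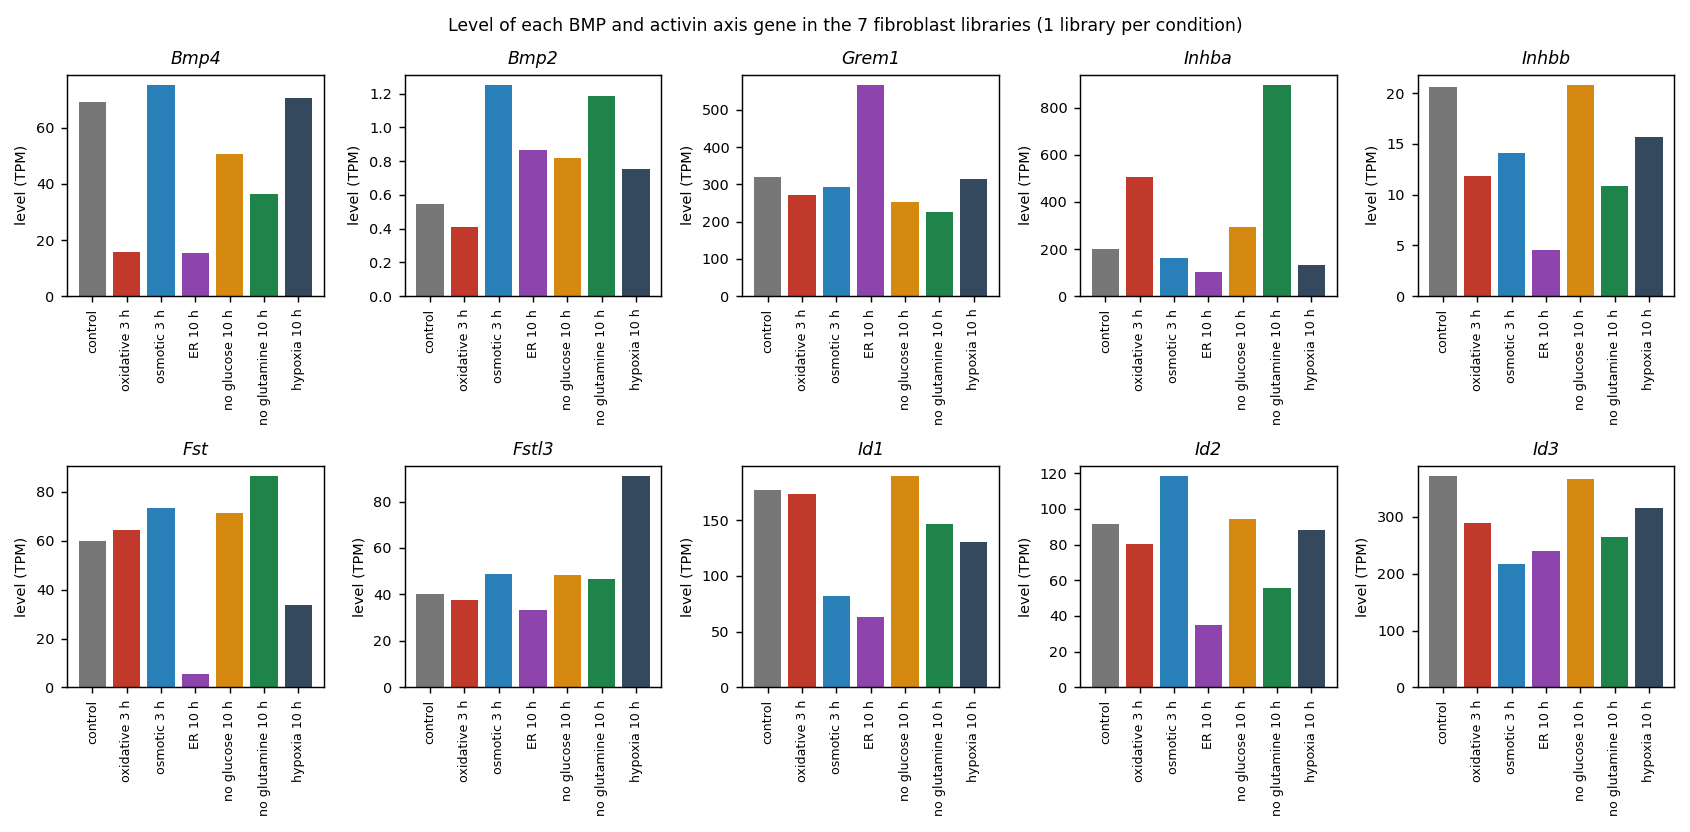
Level of each gene in TPM (vertical axes, which start at 0 and differ in scale) in each of the 7 libraries, 1 bar per library and condition with no error bars because there were no replicates. Bmp4 is lowest in oxidative stress (15.7 TPM) and ER stress (15.5 TPM), Inhba is highest in glutamine depletion (896 TPM), Fst is lowest in ER stress (5.47 TPM) and Fstl3 is highest in hypoxia (90.8 TPM).

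Inhba had the largest rise of the members. It lies on chromosome 13 from 16011851 to 16031621 and encodes the beta A subunit, of which activin A is a dimer. Its level was 896 TPM in glutamine depletion, 504 in oxidative stress, 293 in glucose depletion, 199 in the control, 163 in osmotic stress, 132 in hypoxia and 101 TPM in ER stress. The range was 8.83-fold from ER stress to glutamine depletion. In glutamine depletion the level was 4.49 times that of the control (log2 change 2.16, rank 159 from the highest of 12909 genes), and in oxidative stress 2.53 times (1.33, rank 346). Glucose depletion gave 1.47 times the control level, a log2 change of 0.55 that was within 2-fold and ranked 498 from the highest. In ER stress the log2 change was -0.97, just inside 2-fold.

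Inhbb, the gene of the beta B subunit on chromosome 1 from 119415465 to 119422248, did not follow Inhba. From the highest to the lowest, glucose depletion had 20.8 TPM, the control 20.7, hypoxia 15.7, osmotic stress 14.1, oxidative stress 11.8, glutamine depletion 10.8 and ER stress 4.50 TPM. The control and glucose depletion were the highest and nearly equal, and ER stress was the lowest, a fall to 21.8% of the control (log2 change -1.98). In oxidative stress and glutamine depletion, the libraries where Inhba rose, the log2 changes of Inhbb were -0.76 and -0.87. Inhba exceeded Inhbb 9.66 times in the control, and 42.7 and 82.7 times in oxidative stress and glutamine depletion.

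Fst, on chromosome 13 from 114452290 to 114458951, encodes follistatin, which binds activins with high affinity. Its largest change was in ER stress. The control held 59.8 TPM and ER stress 5.47 TPM, 9.15% of the control and a log2 change of -3.23, which ranked 139 from the lowest of all genes. Hypoxia had 33.8 TPM (log2 change -0.81), and the other libraries were at or above the control, with 64.4 in oxidative stress, 71.6 in glucose depletion, 73.2 in osmotic stress and 86.3 TPM in glutamine depletion. Fst was thus low in 2 of the 7 libraries, and in 1 of them past 2-fold.

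Fstl3 differed from Fst in both of these libraries, in direction in hypoxia and in size only in ER stress. This gene, on chromosome 10 from 79777272 to 79782630, encodes an antagonist with a similar fold and the same ligands. Its level was 90.8 TPM in hypoxia, against 40.1 in the control, 48.8 in osmotic stress, 48.5 in glucose depletion, 46.9 in glutamine depletion, 37.5 in oxidative stress and 33.2 TPM in ER stress. Hypoxia alone stood apart, at 226% of the control (log2 change 1.16), and the other 6 libraries lay between 33.2 and 48.8 TPM. In ER stress, where Fst fell by more than 2-fold, Fstl3 was at 82.9% of the control. The ratio of Fst to Fstl3 was therefore 1.49 in the control, 0.372 in hypoxia and 0.165 in ER stress, and at least 1.48 in the other 4 conditions.

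The summed level of Fst and Fstl3 was 99.9 TPM in the control and between 102 and 133 TPM in every condition except ER stress, where it was 38.7 TPM. Set against this sum, a measure chosen after the levels were seen, Inhba stood at 2.00 in the control, 6.73 in glutamine depletion and 4.95 in oxidative stress. The ratio was 2.62 in ER stress, 2.44 in glucose depletion, 1.33 in osmotic stress and 1.06 in hypoxia. ER stress thus had the lowest levels of Inhba and of the 2 antagonists together. Set against Fst alone, Inhba stood at 18.5 in ER stress, the highest of the 7 libraries, and at 3.33 in the control. This second ratio was lowest in osmotic stress, at 2.22, and was 3.91 in hypoxia. The ratio of Inhba to the sum was lowest in hypoxia, with Inhba at 66.2% of the control level and Fstl3 above 2-fold. These are ratios of transcripts and not of proteins.

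**Figure D3:**
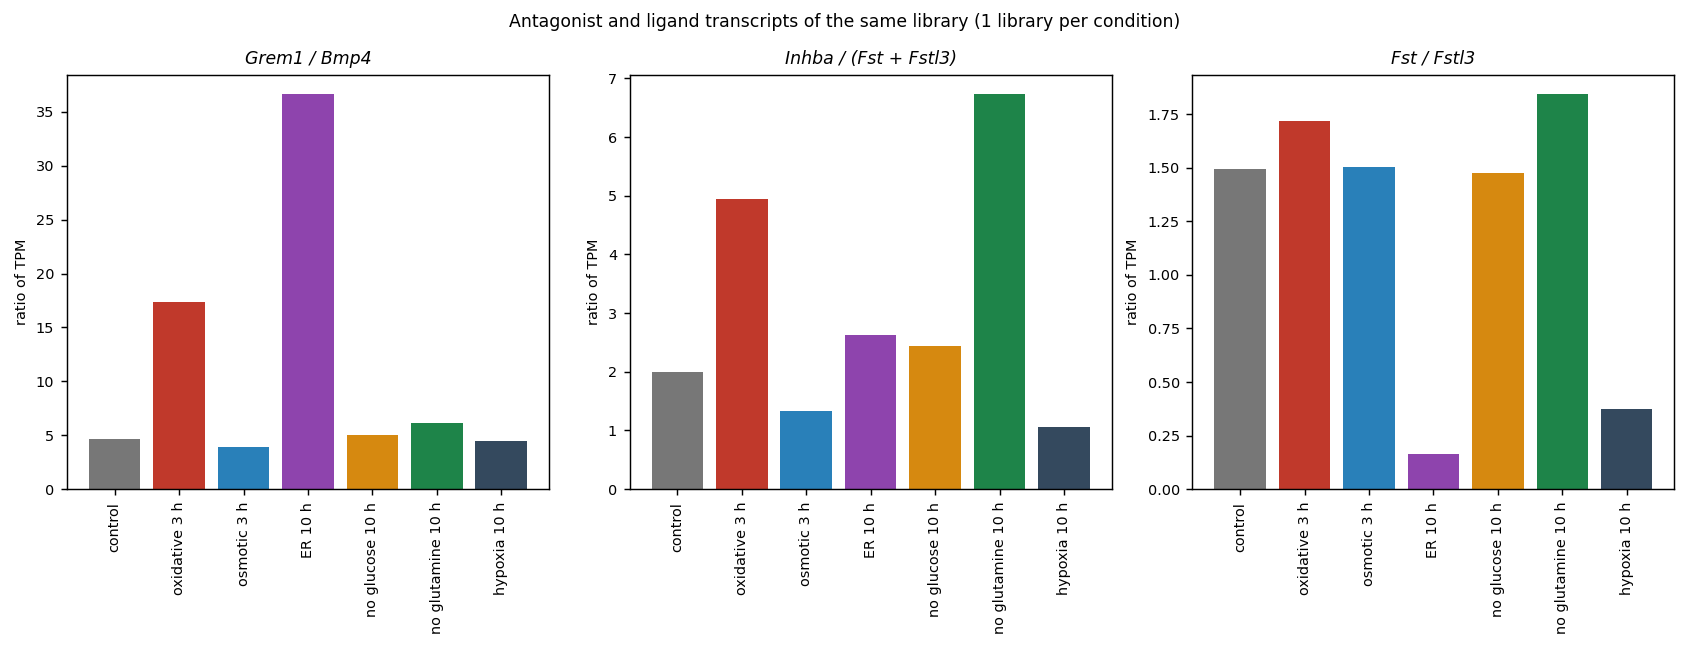
Ratios of TPM within each of the 7 libraries (1 bar per library, axes from 0, no replicates), for Grem1 over Bmp4, Inhba over the sum of Fst and Fstl3, and Fst over Fstl3. The first is highest in ER stress (36.6, against 4.61 in the control), the second in glutamine depletion (6.73, against 2.00), and the third is lowest in ER stress (0.165, against 1.49).

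Among the target genes, Id1 and Id2 fell in ER stress, Id1 also in osmotic stress, and Id3 in no condition. Id1 lies on chromosome 2 from 152736251 to 152737410. Its level was 189 TPM in glucose depletion, 177 in the control and 174 in oxidative stress, while glutamine depletion had 147, hypoxia 131, osmotic stress 82.2 and ER stress 63.4 TPM. Osmotic and ER stress formed the low end, at 46.5% and 35.8% of the control. The fall in osmotic stress, a log2 change of -1.10, was near the threshold. It was -0.97, and so inside 2-fold, after all genes were centred on a median of 0, and -0.95 against the median of the other 6 libraries in place of the control.

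Id2 (chromosome 12, 25093799 to 25097140) stood at 118 TPM in osmotic stress, 94.1 in glucose depletion, 91.4 in the control, 88.1 in hypoxia, 80.3 in oxidative stress and, at the low end, 55.5 in glutamine depletion and 34.9 TPM in ER stress. It was highest in the osmotic stress library, where Id1 was low, and ER stress left 38.2% of the control level (log2 change -1.36). Id3 (chromosome 4, 136143497 to 136145755) exceeded Id1 and Id2 in every library. Its level was 371 TPM in the control, 366 in glucose depletion, 316 in hypoxia and 289 in oxidative stress, followed by glutamine depletion with 264, ER stress with 240 and osmotic stress with 216 TPM. No log2 change of Id3 went below -0.78, and in ER stress it was -0.63. All 6 conditions were below the control for Id3, with glucose depletion the closest to it.

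Id1, Id2 and Id3 together summed to 649 TPM in glucose depletion, 639 in the control, 543 in oxidative stress, 535 in hypoxia, 466 in glutamine depletion, 417 in osmotic stress and 338 TPM in ER stress. Their balance also differed between libraries. Id2 was 14.3% of this sum in the control, 28.4% in osmotic stress and 10.3% in ER stress, and Id3 was 58.0% of the sum in the control and 70.9% in ER stress. Levels of Bmp4 and of the Id genes are given here side by side, and a link between them was not tested. In oxidative stress, with Bmp4 at 22.7% of the control, Id1 was at 98.3%, Id2 at 87.8% and Id3 at 77.9% of the control after 3 hours. In osmotic stress, also at 3 hours, Bmp4 was at 109% of the control and Id1 at 46.5%. In ER stress at 10 hours both were low. In glutamine depletion, also at 10 hours, Bmp4 was at 52.6%, Id1 at 82.9%, Id2 at 60.7% and Id3 at 71.3% of the control. The shares of the summed Id level were computed after the levels were seen.

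**Figure D4:**
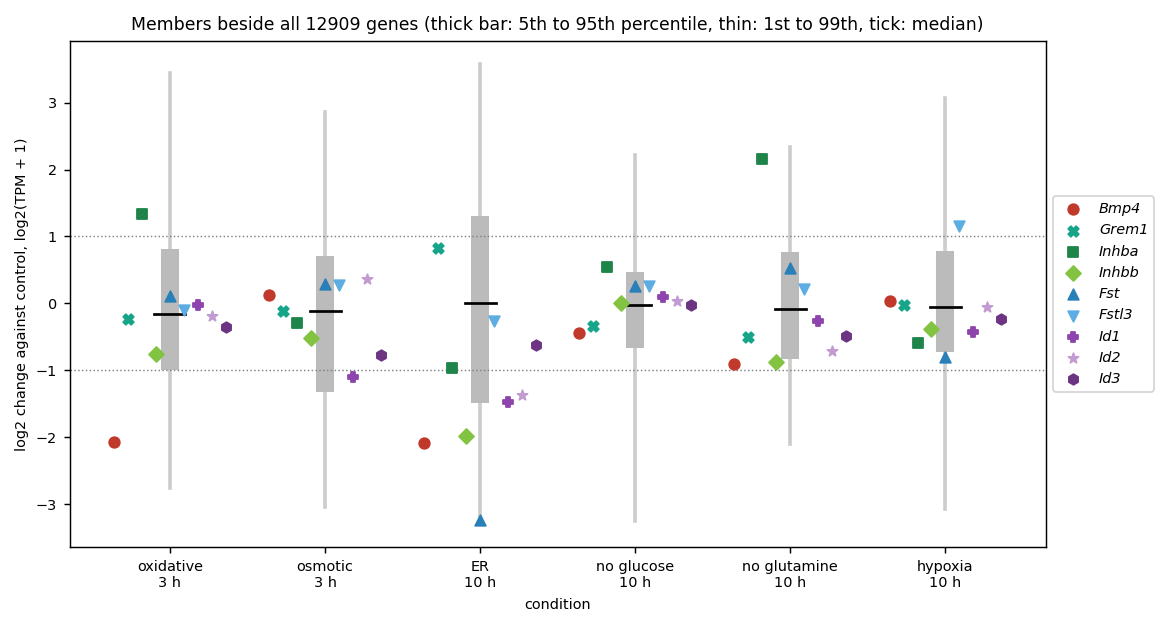
Log2 change against the control (vertical axis, log2(TPM + 1) scale) of the 9 members with a mean of at least 2 TPM, as coloured symbols, beside the spread of all 12909 such genes, for each condition, with dotted lines at 2-fold. Fst at -3.23 and Bmp4 at -2.09 in ER stress, Bmp4 at -2.07 in oxidative stress and Inhba at 2.16 in glutamine depletion are among the values outside the bar of the 5th to the 95th percentile.

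Other genes that BMP signals are known to induce were read from a list of 9, all above the mean of 2 TPM. In ER stress 5 of them fell and none rose, where 11.0% of all genes fell and 8.60% rose. The median log2 change of the 9 was -1.15 there, against 0.00 over all genes. Atoh8, a helix-loop-helix factor, went from 52.7 to 12.3 TPM (log2 change -2.02), and the homeobox gene Msx1 from 29.9 to 7.52 TPM (-1.86). Smad9, which encodes a BMP receptor-regulated SMAD, went from 5.63 to 1.32 TPM (-1.52), Id4 from 18.2 to 7.30 TPM (-1.21) and the inhibitory SMAD gene Smad6 from 28.1 to 12.1 TPM (-1.15). Bambi, which encodes a decoy receptor, had 4.06 TPM without stress and 1.55 TPM in ER stress, a log2 change of -0.99. Smad7, an inhibitory SMAD of both branches, had a log2 change of 0.33 there.

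In glutamine depletion, where 3.21% of all genes fell, 2 of the 9 fell, Atoh8 to 24.7 TPM (log2 change -1.06) and Smad9 to 2.03 TPM (-1.13). The values of Smad6 and Id4 were -0.87 and -0.72, beside -0.71 for Id2. Oxidative stress lowered Msx1, to 12.0 TPM (-1.25), and raised 1 gene of the list, Msx2, from 9.34 to 23.4 TPM (1.24). Of all genes, 4.85% fell and 3.94% rose there. Hypoxia, with 3.57% of all genes up, raised Hey1, which also responds to Notch, from 4.20 to 12.4 TPM (1.37). Osmotic stress and glucose depletion took none of the 9 past 2-fold, where 8.76% and 2.41% of all genes fell and 3.08% and 1.83% rose. Id4 was at -0.76 in osmotic stress, close to the -0.78 of Id3.

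Genes that SMAD2 and SMAD3 are known to induce, downstream of activin and of TGF-β alike, were counted over the 6 list genes reported here. In glutamine depletion, where Inhba rose, all 6 had log2 changes above 0, with a median of 0.92 against -0.09 over all genes. Of the 6, 3 rose, beside 3.21% of all genes. Ctgf, a matrix-associated factor that YAP1 also controls, went from 1177 to 3307 TPM (log2 change 1.49), Skil, a repressor of SMADs, from 20.7 to 49.4 TPM (1.22), and Ldlrad4 from 21.1 to 43.7 TPM (1.02). In oxidative stress all 6 were again above 0, with a median of 0.69 against -0.16 over all genes. None passed 2-fold there, where 3.94% of all genes rose and 4.85% fell. Glucose depletion gave a median of 0.38 with all 6 above 0, against -0.02 over all genes. None passed 2-fold there either, where 1.83% of all genes rose and 2.41% fell. Osmotic stress, where 3.08% of all genes rose, raised Skil alone, to 78.7 TPM (1.88), with a median of 0.17 over the list. ER stress, where 11.0% of all genes fell, lowered Ldlrad4 alone, to 9.12 TPM (-1.13), with a median of -0.23. Hypoxia, where 3.57% of all genes rose and 2.64% fell, took none past 2-fold. Many of these genes answer to other signals, and no ligand or SMAD activity was measured in these libraries.

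**Figure D5:**
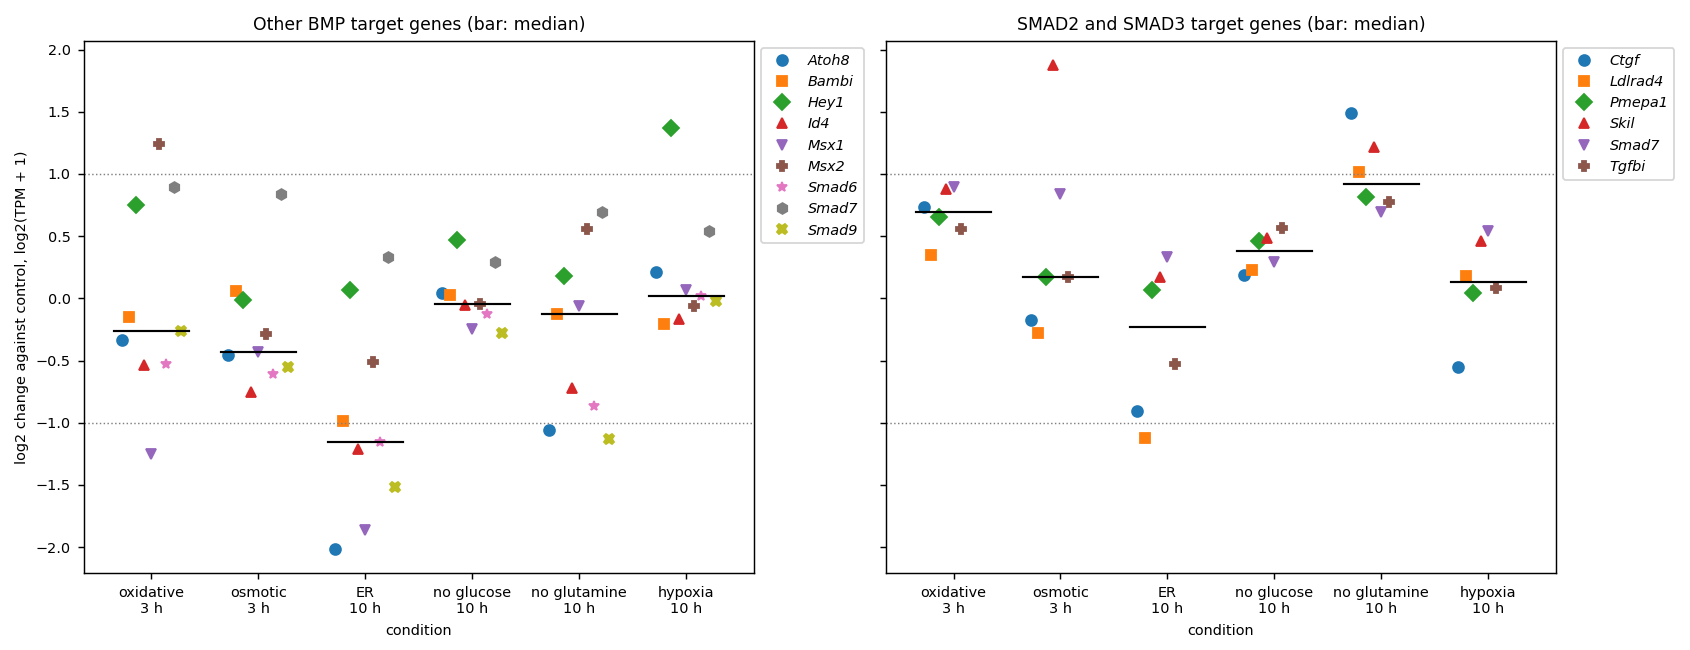
Log2 change against the control (vertical axis, log2(TPM + 1) scale) of 9 other BMP target genes on the left and 6 SMAD2 and SMAD3 target genes on the right, 1 symbol per gene and condition, with black bars for the median and dotted lines at 2-fold. The BMP targets have their lowest median in ER stress (-1.15), and the SMAD2 and SMAD3 targets their highest in glutamine depletion (0.92). Smad7 is in both panels.

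Of 12 receptor and co-receptor genes above the filter, at most 3 passed 2-fold in any condition. That was in ER stress, with 1 up and 2 down, where 8.60% of all genes rose and 11.0% fell. Osmotic stress had 1 down, where 8.76% of all genes fell, and glutamine depletion 1 up, where 3.21% rose. Bmpr1b, a BMP type I receptor gene, went from 8.65 to 23.7 TPM in ER stress (log2 change 1.35) and was at 17.2 TPM in glutamine depletion (0.91), while the co-receptor gene Tgfbr3 went from 17.2 to 5.23 TPM in ER stress (-1.55). Acvrl1, which encodes ALK1, went to 6.93 TPM from 15.2 TPM in ER stress (-1.03). The activin type I receptor gene Acvr1b went from 5.67 to 2.08 TPM in osmotic stress (-1.12). Acvr1 reached 63.4 TPM in glutamine depletion from 30.7 TPM (1.02). Bmpr1a and Bmpr2, the other main BMP receptor genes, stayed within 2-fold throughout, at 54.0 to 80.8 TPM and 15.5 to 27.7 TPM. Among 14 SMADs and intracellular regulators, 1 rose in oxidative stress (3.94% of all genes), 1 rose in osmotic stress (3.08%) and 3 fell in ER stress (11.0%). In glutamine depletion 3 rose and 1 fell, beside 3.21% of all genes up and 3.21% down. Besides the genes already given, these regulators were Smad1 in oxidative stress, from 16.0 to 35.4 TPM (1.10), and Smad3 in glutamine depletion, from 32.5 to 70.3 TPM (1.09). Several of the regulators, such as Smad6, Smad7, Smad9, Skil and Ldlrad4, are also on the target lists and are counted in each. Smad7 is on both target lists, and Bambi is on the receptor list and the BMP target list.

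Of 9 other secreted antagonists above the filter, 3 fell and none rose in ER stress, where 11.0% of all genes fell and 8.60% rose. No other condition took any past 2-fold. In those conditions between 1.83% and 3.94% of all genes rose and between 2.41% and 8.76% fell. Fstl1, a follistatin relative and a major product of fibroblasts, went from 915 to 378 TPM (log2 change -1.27), Nbl1 from 133 to 58.5 TPM (-1.17) and Bmper from 31.9 to 14.0 TPM (-1.13). Twsg1 was at -0.80. A list of proprotein convertases, which cut BMP and activin precursors, and of tolloid proteases, which cut procollagens and the BMP antagonist chordin, had 6 genes above the filter. In ER stress 2 of them fell, again beside 11.0% of all genes, and none of the 6 passed 2-fold elsewhere. These 2 were the convertase gene Furin, from 112 to 51.3 TPM (-1.11), and the tolloid gene Bmp1, from 107 to 49.9 TPM (-1.08). Bmp1 is no BMP ligand in spite of its name. The E protein and Twist genes, partners of Id proteins, did not pass 2-fold in any library, and Twist1 in oxidative stress had the lowest value, -0.87. Over the 6 conditions, between 1.83% and 8.60% of all genes rose and between 2.41% and 11.0% fell.

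The fibroblast, cartilage, skeletal muscle, neural and macrophage marker lists had their lowest summed levels in the ER stress library. The endothelial list did not, with 5.68 TPM there and 4.09 TPM in glucose depletion, nor did the scarce epithelial and erythroid lists. In ER stress all 8 fibroblast markers were below the control, with Col3a1 from 1479 to 352 TPM (log2 change -2.07) and Pdgfrb from 129 to 57.6 TPM (-1.15). Of the cartilage list, Sox9 went from 10.1 to 3.01 TPM (-1.47) and Col2a1 from 16.5 to 5.93 TPM (-1.34), with a summed level of 40.9 TPM against 69.6 to 76.5 TPM in the other 6 libraries. Comp of this list was at 31.3 to 53.2 TPM and Acan at 0.539 to 2.30 TPM, while Matn1 was at most 0.0994 TPM in any library. The skeletal muscle list summed to 13.8 TPM in ER stress and 23.5 to 36.2 TPM elsewhere, nearly all of it from Des, while Myod1 and Pax7 reached at most 0.107 and 0.0287 TPM. The neural and glial list summed to between 22.6 and 28.8 TPM, most of it Stmn2. The part of these shifts in the changes of the BMP and activin genes was not tested.

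The patterns of the members over the 7 libraries were compared by Pearson r and Spearman rho of log2(TPM + 1), as a description of 7 single libraries with no p-value. Id1 and Id3 had r = 0.82 and rho = 0.82, and r = 0.54 without osmotic and ER stress, the 2 libraries farthest from the median of Id1. Bmp4 and Id2 had r = 0.73 and rho = 0.82, and r = 0.86 without oxidative and ER stress. Bmp4 and Id1 had r = 0.21 and rho = 0.04. Inhba and Grem1 ran against each other, with r = -0.77 and rho = -0.86, and r = -0.82 without oxidative stress and glutamine depletion. For Grem1 and Fst r was -0.96 and rho -0.86, but r was -0.58 without ER stress and glutamine depletion. The r of Fst and Id2 rested on ER stress and hypoxia, as it was 0.74 over all libraries and -0.51 without these 2. The same libraries enter every pair, and TPM shares are not independent of each other.

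Each of the 9 members was also matched with the other genes of at least 10 TPM on average and a range of at least 1 log2 unit, 3755 in number. The closest to Inhba were Ctgf (r = 0.99, rho = 1.00) and the cytoskeletal adaptor gene Pdlim5 (0.99 and 1.00), and without oxidative stress and glutamine depletion both kept an r of 0.97. Bmp4 was nearest to Palm (0.99 and 0.96) and Cryz (0.98 and 1.00). The nearest genes to Id1 were Snai1, a repressor of epithelial genes (0.96 and 0.86), and Snn (0.96 and 0.93), and the r of Snai1 was 0.41 without osmotic and ER stress. Id2 was nearest to Maged1 (0.98 and 0.96) and Mrps21 (0.97 and 0.75), and Id3 to AA414768 (0.98 and 0.93) and the interferon response factor gene Irf1 (0.95 and 0.96). For Fstl3 the nearest were Apln, which went from 13.2 to 80.7 TPM in hypoxia (0.97 and 0.71), and Snx25 (0.97 and 0.86). Without ER stress and hypoxia the r of Apln was 0.66 and that of Snx25 0.62. Inhbb was nearest to Tcf19 (0.99 and 0.93) and Ccdc85b (0.99 and 0.93), Grem1 to Tmem161a (0.99 and 0.96) and Mid1 (0.99 and 1.00), and Fst to Adgre5 (0.99 and 0.96) and Dnmt1 (0.99 and 0.64). The value of Dnmt1 was 0.16 without ER stress and hypoxia. With 7 libraries and 3755 genes, high values are frequent, and between 13 and 242 genes had an r of at least 0.9 with each member.

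Some of the members overlap other genes on the opposite strand. The library kit kept the strand of the reads, but Kallisto at its default settings does not use it, so reads of such a pair cannot be told apart by strand. The overlapping genes with a row were at most 5.75 TPM for Inhba, 3.46 TPM for Bmp4 and 0.737 TPM for Fstl3 in any library.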

How the data were processed

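Each of the 7 stranded mRNA libraries of MEFs was 1 condition, grouped by its treatment label. The authors ran Kallisto 0.43.1 at default settings on GRCm38 cDNA of Ensembl release 90, and the deposited TPM are sums over the transcripts per gene. No read counts were used, so depth is unknown. As TPM is a share, a change of abundant genes shifts the rest.

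Changes against the control library were computed on the log2(TPM + 1) scale. The members and lists were chosen with earlier results of these data known. Beside the 10 members, the text names up to 4 genes of each list by their largest change in any condition, Smad6, Smad7, Bambi and Id4, cell type markers, and the 2 genes most like each member. Acvr1, Smad1, Smad3, Bmpr1a, Bmpr2 and Msx2 were named after their values were seen. A gene of the SMAD2 and SMAD3 target list is not reported here and was left out of its counts. Alternatives were pseudocounts of 0.1 and 5 TPM, 2 other filters on low levels (none, or an average of 10 TPM), centring, thresholds of 1.5-fold and 3-fold, removal of mitochondrially encoded genes, and a reference made of the median of the other 6 libraries. All 10 members had a position in GENCODE M21 (GRCm38). Promoter windows were those of RefSeq (GRCm38.p6). The 2-fold calls were tested on simulated libraries and the motif search on short made-up sequences, and the other steps were not tested in this way. The software was Python 3.11.15, pandas 2.3.3, numpy 2.4.6 and, for plots, matplotlib 3.10.9.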

Additional observations from a re-analysis of the deposited data

How the results depend on the processing

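Of the 54 log2 changes of the 9 members, none changed sign among those past 2-fold under any alternative. All 54 kept their side of the threshold with pseudocounts of 0.1 and 5 TPM and without mitochondrially encoded genes, 53 after centring and 52 against the median of the other 6 libraries. The values that moved were that of Id1 in osmotic stress under both of the latter settings, and that of Inhba in ER stress, which was -1.24 against the other libraries. The number of members past 2-fold in osmotic stress was 1, and 0 after centring or against the other libraries. Of all genes, 3.64% rose and 7.08% fell there after centring, and 2.81% rose and 7.16% fell against the other libraries. With a 1.5-fold threshold 1 member rose and 2 fell in oxidative stress, a count of 3, where 7.27% of all genes rose and 16.2% fell. In osmotic stress the count was 2, both lower, with 6.56% of genes up and 19.5% down. In ER stress it was 8, of which 7 were lower, with 19.0% up and 21.3% down. In glutamine depletion it was 4, of which 3 were lower, with 7.47% up and 10.6% down, and in hypoxia 3, of which 2 were lower, with 7.23% up and 8.10% down. With a 3-fold threshold the count was 1 in oxidative stress, lower, where 1.60% of genes fell, and 3 in ER stress, all lower, where 4.31% fell. At this threshold it was 0 in osmotic stress, with 1.65% of genes up and 3.37% down, and 0 in hypoxia, with 2.14% up and 1.45% down. In glutamine depletion it stayed at 1, higher, where 1.61% of genes rose. The filter on low values changed no count of members. Of 36 pairs of members, 19 had a Spearman rho over 0.1 away from Pearson r, and 0 moved as far with another pseudocount. No replicate could be left out, and no paired analysis was possible because each condition is 1 library. A difference between 2 libraries holds biological, culture and sequencing variation together.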
